A study of Mus musculus with 4 samples.

Results

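The 53 genes described here encode the machinery of mitosis: the cyclins, kinases and phosphatases that start it, the proteins that condense chromosomes, the kinetochore and spindle, the checkpoint that holds cells in metaphase, and the factors that end mitosis and split the cell. They were chosen by symbol and function, with no measured value in the rule but with earlier results of these data known. All 53 were found among the 50600 gene identifiers of the files. The RNA of mouse regulatory T cells was sequenced in 4 libraries; these are the CD4 T cells that restrain immune responses and that the transcription factor Foxp3 defines. The labels give strain C57BL/6NJ, primary cells and biological replicates 1 to 4, with no second group. Age is given as unknown, sex was not collected, and no genotype alteration or treatment is named. A protocol for differentiating CD4 T cells is linked, and names in the file headers carry the words activated and bulk and a time of 72 h. All 4 libraries carry 1 donor identifier, and the labels do not say that they came from separate animals, so a p-value below speaks of the spread among these 4 libraries alone. The study design gives no contrast, and the comparisons that remain are between genes within a library and between libraries.

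During late S phase and G2 a cell builds up cyclins A and B, which bind Cdk1 and, once Cdc25 phosphatases remove its inhibitory phosphates, drive entry into mitosis. Chromosomes condense and attach through kinetochores to the spindle, and when every kinetochore is attached the anaphase-promoting complex (APC/C), activated by Cdc20, marks cyclin B and securin for destruction. Transcription of these genes is held down in resting cells by the DREAM complex and is raised in G2 by the MuvB complex together with B-Myb and FoxM1. MuvB contacts DNA at a short element called the CHR (cell cycle genes homology region), which in many such promoters lies near CCAAT boxes bound by NF-Y. T cells rest outside the cell cycle until antigen and costimulation start a phase of rapid division.

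Total counts on genes were 121477975, 62472060, 73690296 and 51460018 in replicates 1 to 4, and none of the 53 genes had fewer than 901 counts in a library. All 8 T cell markers and all 8 regulatory T cell markers reached 1 TPM (counts divided by gene length and scaled to 1 total in every library) in every library, with Foxp3 at 471, 408, 449.9 and 463 TPM in replicates 1 to 4. Mean levels of the regulatory list ran from 16.4 TPM (Ikzf2) to 2168 TPM (Il2ra). The same cut was reached by 48.9% of protein-coding genes, 2 of 4 CD8, 1 of 6 B cell, 1 of 7 myeloid, 1 of 5 natural killer and 0 of 6 erythroid and platelet markers. Of markers of other cells, the B cell list summed to 2.95 to 4.50 TPM, the myeloid list to 2.39 to 4.96 TPM and the erythroid and platelet list to 0.509 to 2.20 TPM. Ncr1, Lyz2, S100a8, Gzmk, Hbb-bs and Pf4 had no count in any library, which allows up to 0.0247 to 0.0583 CPM (counts scaled to the library total, with no length). The CD8 gene Cd8b1 had 8.40 to 13.2 TPM while Cd8a had 0.201 to 0.308 TPM, and Nkg7, which natural killer and cytotoxic T cells share, had 131 to 165 TPM.

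Promoter sequences are shown first, because most of these genes share CHR and CCAAT letters, which the choice of genes did not use. The RefSeq promoter table for GRCm38.p6 (250 bases before to 50 after a gene's start) held an entry for 44 of the 53 genes. CHR letters, here TTTGAA or TTCGAA on either strand, were in a promoter of 34 of the 44 mitotic genes (77.3%), against 20.2% of 17491 protein-coding genes. CCAAT on either strand was in a promoter of 31 of the 44 (70.5%), against 42.3% of protein-coding genes, and at 2 or more places in 21 of the 44 (47.7%), against 14.6%. Both kinds of letters stood in 1 promoter for 29 of the 44 (65.9%), against 8.22% of protein-coding genes. Both sets of letters overlapped each other in 1 mitotic promoter. The median level was 88.9 TPM over the 34 genes with CHR letters and 55.5 TPM over the 10 without (Nusap1, Birc5, Ccnb1, Ncaph, Cenpe, Mybl2, Mad2l1, Plk4, Pttg1 and Nuf2). A letter match is not a measured binding site, and its absence says only that these letters are not in this window.

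**Figure D1:**
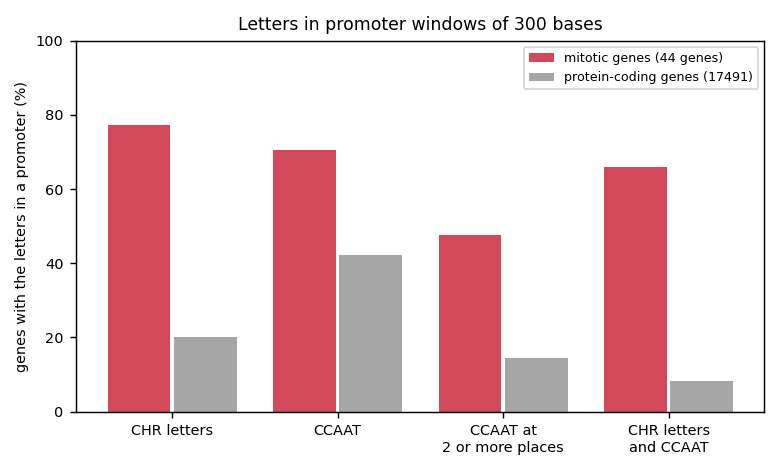
Share of genes (%) with the letters in the promoter window, for 44 mitotic genes (red) and 17491 protein-coding genes (grey). CHR letters were in 77.3% of the mitotic genes against 20.2%, and CHR letters together with CCAAT in 65.9% against 8.22%.

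Windows to print were sought only where at least 150 bases of the promoter entry lay before the gene as counted. In 8 such genes, both kinds of letters stood in the last 150 of these bases. The highest in each of 5 roles are printed 5′ to 3′ on the gene's strand. CHR and CCAAT letters of either orientation are in capitals (TTCAAA and ATTGG are the reverse complements). The Kif11 window ends at 37376381, short of the start of the gene as counted, 37376403. Cdc20 (ENSMUSG00000006398.15; chromosome 4, 118432901 to 118437352, minus strand) activates the APC/C, Top2a (ENSMUSG00000020914.17; chromosome 11, 98992943 to 99024189, minus strand) untangles DNA, and Kif11 (ENSMUSG00000012443.3; chromosome 19, 37376403 to 37421859, plus strand) slides spindle microtubules apart. Cdk1 (ENSMUSG00000019942.13; chromosome 10, 69335146 to 69352938, minus strand) is the mitotic kinase, and Ect2 (ENSMUSG00000027699.19; chromosome 3, 27097222 to 27153878, minus strand) activates RhoA for cytokinesis. The windows lie at chr4:118437353-118437502 (minus), chr11:99024190-99024339 (minus), chr19:37376232-37376381 (plus), chr10:69352939-69353088 (minus) and chr3:27153879-27154028 (minus) of GRCm38.p6, in the same order.
Cdc20: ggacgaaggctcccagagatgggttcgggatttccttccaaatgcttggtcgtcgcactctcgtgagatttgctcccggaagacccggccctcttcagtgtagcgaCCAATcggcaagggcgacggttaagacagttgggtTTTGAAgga
Top2a: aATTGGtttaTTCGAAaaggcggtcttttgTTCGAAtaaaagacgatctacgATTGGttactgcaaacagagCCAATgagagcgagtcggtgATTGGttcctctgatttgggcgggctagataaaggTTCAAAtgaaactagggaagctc
Kif11: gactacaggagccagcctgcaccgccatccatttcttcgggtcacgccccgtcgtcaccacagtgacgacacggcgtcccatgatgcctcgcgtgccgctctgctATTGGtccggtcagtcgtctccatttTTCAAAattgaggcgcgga
Cdk1: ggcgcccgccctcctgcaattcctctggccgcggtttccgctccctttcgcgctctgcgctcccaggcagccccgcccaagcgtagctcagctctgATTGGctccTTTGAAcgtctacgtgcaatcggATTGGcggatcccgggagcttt
Ect2: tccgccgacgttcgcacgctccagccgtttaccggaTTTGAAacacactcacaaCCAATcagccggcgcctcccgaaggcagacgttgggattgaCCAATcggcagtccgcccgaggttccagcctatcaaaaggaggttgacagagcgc
The Top2a window held CHR letters at 3 places and CCAAT letters at 4, the Cdk1 and Ect2 windows 1 and 2, and the Cdc20 and Kif11 windows 1 and 1.

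Every one of the 53 genes was expressed. All 53 reached 1 TPM in every library, against 48.9% of 21764 protein-coding genes, and all 53 had a mean of 10 TPM or more, against 38.4%. A mean of 100 TPM or more was reached by 20 of the 53 mitotic genes, against 9.62% of protein-coding genes. Their median level was 88.4 TPM, above that of 89.1% of protein-coding genes and of 77.7% of the 10640 protein-coding genes at 1 TPM in every library. Together they took 0.893%, 0.910%, 0.912% and 0.876% of counts in replicates 1 to 4. In such bulk libraries, fewer dividing cells and less RNA per cell cannot be told apart.

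Levels spanned from Cdc20 at 449.9 ± 51.1 TPM (SD, n = 4, as for all levels below) to Anln at 19.3 ± 1.34 TPM. In the order of mean TPM, the ranges over libraries of 44 of the 52 neighbouring pairs overlapped, so the exact order of most genes is not resolved by these libraries. The 8 neighbours with separate ranges were Top2a above Mki67, Mki67 above Plk1, Aurkb above Bub1b, Smc2 above Nusap1, Nusap1 above Birc5, Ndc80 above Kif4, Mybl2 above Prc1, and Ttk above Anln. Levels between genes also rest on the length each count is divided by, which was the merged length of all annotated exons. That length was over 2 times the principal transcript's for 13 of the 53 genes and 4.00 times for Cenpa. The orders given are those on merged lengths unless principal lengths are named. Of the 8 separate neighbours, 3 turned round on principal lengths: Nusap1 (120.4 TPM) stood above Smc2 (107 TPM), Birc5 (280.2 TPM) above Nusap1, and Prc1 (85.3 TPM) above Mybl2 (46.1 TPM). Exons of other genes on the same strand covered 3.78% of the merged length of Ncapd2, 2.50% of Foxm1 and 1.35% of Top2a, and none of the other 50.

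**Figure D2:**
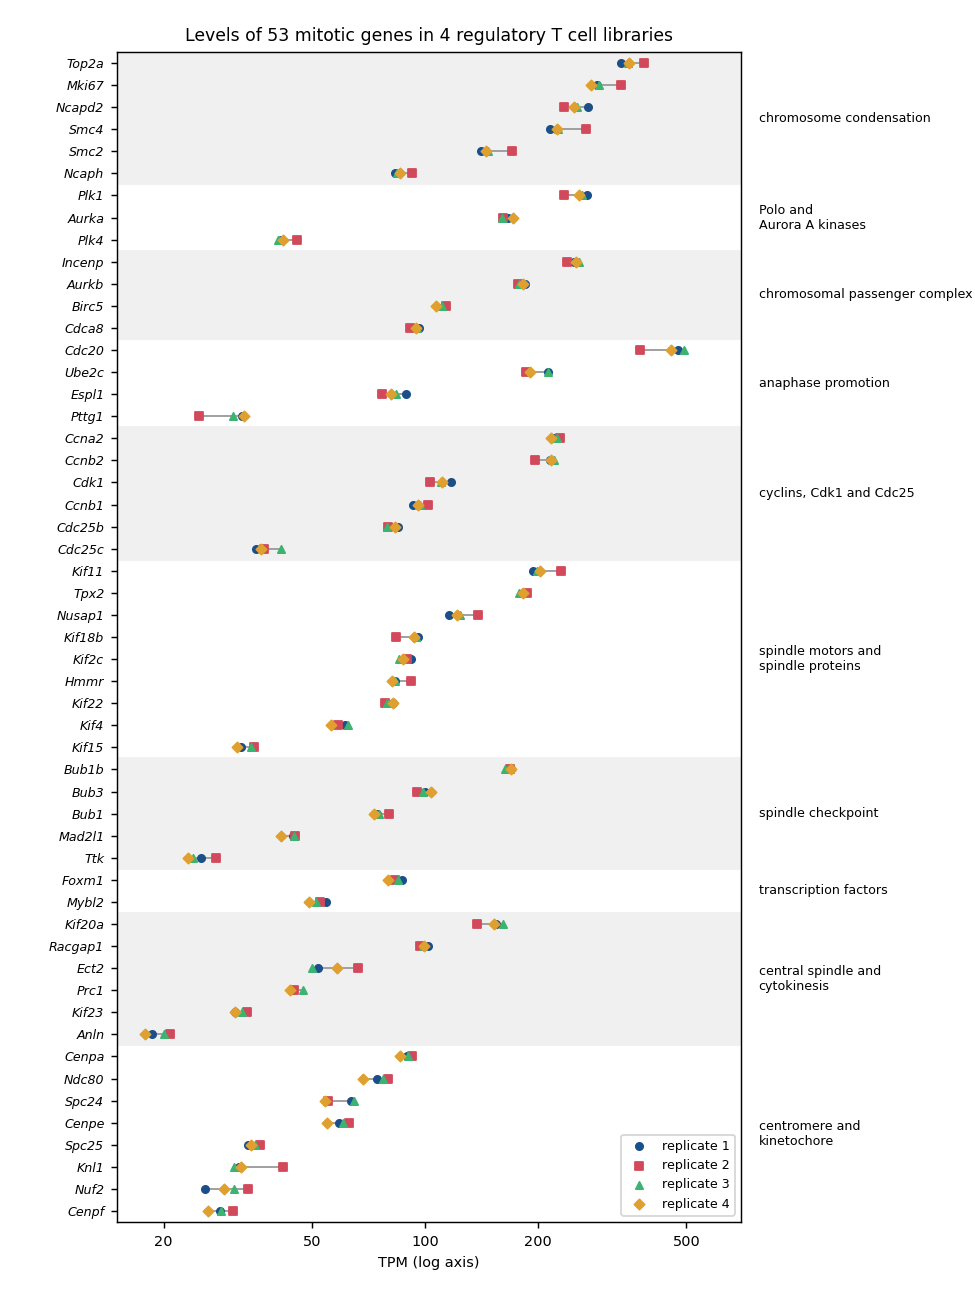
TPM (log axis) of each of the 53 genes in replicates 1 to 4, grouped by role, with a line spanning the libraries of a gene. The 6 chromosome condensation genes sit between 83.0 and 386 TPM and the 8 centromere and kinetochore genes between 25.8 and 92.6 TPM.

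Among the genes that start mitosis, the cyclins, Cdk1 and Cdc25 phosphatases had a median of 104 TPM over 6 genes. Ccna2, the cyclin of S phase and G2, had 221, 229, 225 and 217 TPM in replicates 1 to 4. Ccnb2 had 216, 197, 221 and 217 TPM and Ccnb1, the B-type cyclin required for mouse development, had 92.8, 102, 97.1 and 95.8 TPM. Both A- and B-type cyclins were thus at high levels in all 4 libraries, with Ccna2 over Ccnb1 in each. Cdk1 itself had 117, 103, 110.5 and 111 TPM. Cdc25b, a phosphatase that activates Cdk1, had 84.8, 79.8, 79.1 and 82.9 TPM, and its paralog Cdc25c had 35.2, 37.1, 41.1 and 36.3 TPM. The ranges of the Cdc25 genes did not overlap. Foxm1, the factor that raises G2 transcripts, had 86.98, 83.3, 84.7 and 79.7 TPM, and Mybl2, which encodes B-Myb, had 54.5, 52.5, 51.2 and 48.9 TPM.

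Of the kinases outside the cyclin system, Plk1, which acts from mitotic entry to cytokinesis, had 271, 235, 263 and 258 TPM, the highest with merged lengths. With principal lengths Aurkb (192 TPM) stood above Plk1 (180.0 TPM). Aurka, the kinase of centrosomes and spindle poles, had 167, 161, 161 and 172 TPM, and Plk4, which controls centriole duplication, had 41.1, 45.4, 40.5 and 41.7 TPM. The 4 subunits of the chromosomal passenger complex, which corrects wrong attachments and guides cytokinesis, had a median of 146 TPM. Its scaffold Incenp had 251, 239.8, 258 and 253 TPM and its kinase Aurkb 185, 178, 178 and 183 TPM. Birc5, which encodes survivin, had 113, 114, 111 and 107 TPM, and Cdca8, which encodes borealin, had 96.4, 91.4, 95.4 and 94.6 TPM. The 4 libraries lay close together for each subunit, and Aurka lay just below Aurkb in each.

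The 6 genes of chromosome condensation were the highest group, with a median of 244 TPM. Top2a, which encodes DNA topoisomerase II alpha, had 335, 386, 349.6 and 351 TPM, and Mki67, whose product Ki-67 coats mitotic chromosomes and is a common marker of dividing cells, had 288, 334, 292 and 277 TPM. Of the condensin ATPases, Smc4 had 216, 269.8, 227 and 225 TPM and Smc2 had 141, 170.5, 147 and 146 TPM. Replicate 2 was the highest library for Top2a, Mki67, Smc4 and Smc2. Ncapd2, a regulatory subunit of condensin I, had 273, 236, 255 and 250.1 TPM, and for this gene replicate 2 was the lowest. Ncaph, the kleisin subunit of condensin I, had 83.03, 92.1, 84.1 and 85.7 TPM.

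Centromere and kinetochore genes were the lowest group, with a median of 47.0 TPM over 8 genes. Cenpa, the histone H3 variant that marks centromeres, had 89.5, 92.6, 89.8 and 85.5 TPM. Of the Ndc80 complex, which binds microtubules, Ndc80 had 74.6, 79.8, 77.05 and 68.3 TPM, Nuf2 25.8, 33.5, 30.8 and 28.9 TPM, Spc24 63.5, 55.03, 64.6 and 53.9 TPM and Spc25 33.6, 36.1, 35.2 and 34.2 TPM. The 4 subunits differed in TPM, with Ndc80 the highest in every library on merged lengths. On principal lengths the mean of Ndc80 was the lowest, at 52.5 TPM, against 55.03 TPM for Nuf2, 65.1 TPM for Spc25 and 78.2 TPM for Spc24. Knl1, the scaffold for checkpoint proteins, had 31.8, 41.8, 30.8 and 32.1 TPM, with replicate 2 above the other libraries. Of the corona proteins, the kinesin Cenpe had 59.00, 62.7, 60.4 and 54.7 TPM and Cenpf had 28.3, 30.6, 28.4 and 26.2 TPM. With the principal transcript's length in place of the merged length, Cenpa was at 250.4 TPM. On that scale a gene whose length did not change, such as Ndc80, was multiplied by 0.70.

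Spindle motors and spindle proteins had a median of 88.4 TPM over 9 genes. Kif11 had 194, 231, 199 and 203 TPM, and Kif15, a motor that can take over part of its work, had 32.2, 34.8, 34.2 and 31.3 TPM. Tpx2, which activates Aurora A on the spindle, had 183, 187, 178 and 182 TPM, and Kif2c, which disassembles microtubules at centromeres, had 91.4, 89.5, 85.4 and 87.4 TPM. All 4 libraries lay close together for Tpx2 and Kif2c, while replicate 2 was the highest for Kif11. The other 5 averaged 125 ± 9.76 TPM (Nusap1, a spindle bundling protein), 91.9 ± 5.52 TPM (Kif18b, a motor of microtubule plus ends), 84.8 ± 4.45 TPM (Hmmr, a spindle pole protein), 80.5 ± 2.00 TPM (Kif22, a chromosome-bound motor) and 59.4 ± 2.85 TPM (Kif4, a motor of chromosome arms and midzone).

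The 5 checkpoint genes had a median of 75.7 TPM. Bub1b, which encodes the BubR1 part of the inhibitor of Cdc20, had 169.8, 168, 163 and 169 TPM, and its partner Bub3 had 99.8, 95.2, 98.8 and 104 TPM. The kinase Bub1 had 74.5, 80.03, 75.3 and 72.9 TPM, and Mad2l1, which encodes the Mad2 protein that binds Cdc20, had 44.3, 44.8, 44.5 and 41.3 TPM. Ttk, the kinase also known as Mps1 that starts checkpoint signalling, had 25.1, 27.7, 23.96 and 23.2 TPM. On merged lengths Bub1b was the highest of the 5 in every library and Ttk the lowest. On principal lengths Bub3 (220.1 TPM) stood above Bub1b (137 TPM), and Ttk (30.02 TPM) was still the lowest.

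The 4 genes of anaphase promotion held the highest gene of all and one of the lowest. Cdc20 had 476, 376, 491 and 456 TPM, with replicate 2 below the others. Ube2c, an enzyme that starts ubiquitin chains for the APC/C, had 214, 186, 213 and 191 TPM. Espl1, which encodes separase, the protease that opens cohesin rings, had 88.9, 76.8, 83.5 and 81.05 TPM, and Pttg1, which encodes its inhibitor securin, had 32.5, 24.9, 30.6 and 32.8 TPM. Replicate 2 was the lowest library for each of these 4 genes. With principal transcript lengths, Top2a (430.1 TPM) and Ube2c (379 TPM) stood above Cdc20 (329 TPM).

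The 6 genes of the central spindle and cytokinesis had a median of 50.6 TPM. Kif20a, a motor of the central spindle, had 155, 138, 161 and 153 TPM. Of centralspindlin, Racgap1 had 102, 96.7, 98.97 and 99.3 TPM and its motor Kif23 31.1, 33.4, 32.4 and 30.97 TPM. Ect2, which Racgap1 recruits, had 51.6, 66.2, 49.9 and 58.1 TPM, and replicates 2 and 4 were above replicates 1 and 3. Anln, which encodes the contractile ring protein anillin, had 18.6, 20.8, 20.01 and 17.8 TPM, the lowest of the 53 in every library on merged lengths. On principal lengths its 26.7 TPM stood just above Cdc25c (26.2 TPM) and Knl1 (26.2 TPM). Racgap1 (161 TPM) then stood above Kif20a (109.9 TPM). Prc1, which bundles antiparallel microtubules, averaged 44.8 ± 1.55 TPM.

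Partners, paralogs and regulators were then set against each other within each library, as the difference of log2(TPM + 0.1) in 24 pairs. Each of the 24 had the same direction in all 4 libraries. In an exact two-sided sign-flip permutation test, 2 of the 16 possible sign assignments were as large as the one observed for each pair. This is the smallest p that 4 libraries can give, and Benjamini-Hochberg adjustment over the 24 pairs leaves it as it is, so no pair could pass 0.05. The difference was over 2-fold in 15 pairs and within 1.5-fold in 5.

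The largest difference was Cdc20 over Mad2l1, the activator of the APC/C over the protein that holds it back, at 3.35 ± 0.19 on the log2 scale (10.2-fold), with 3.42, 3.07, 3.46 and 3.46 in replicates 1 to 4. It stayed at 3.26 with principal transcript lengths. Kif11 over Kif15 was 2.63 ± 0.09, and Plk1 over Plk4 was 2.60 ± 0.16. These 2 were smaller with principal lengths, at 1.46 and 1.63. Ncapd2 over Ncaph was 1.55 ± 0.15, and Smc2 over Smc4, which form a dimer, was -0.63 ± 0.02.

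Within the cyclin system, Ccnb1 over Ccnb2 was -1.13 ± 0.12, and -0.37 with principal lengths. Ccna2 over Ccnb1 was 1.20 ± 0.04. In CPM, with no length taken into account, Ccnb1 was the higher of the B-type cyclins (0.33). Cdk1 over Ccnb1 was 0.19 ± 0.13, and turned to -0.40 with principal lengths. Cdc25b over Cdc25c was 1.12 ± 0.14 and Foxm1 over Mybl2 0.69 ± 0.03. The Foxm1 difference was nearly the same with principal lengths, at 0.66.

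Among kinases and checkpoint genes, Aurka over Aurkb was -0.13 ± 0.03, and -0.32 with principal lengths. Aurka over its activator Tpx2 was -0.14 ± 0.05, and turned to 0.17 with principal lengths. Bub1 over Bub1b was -1.15 ± 0.07, with -1.02 on principal lengths. Bub3 over Mad2l1 was 1.18 ± 0.10, and grew to 2.69 on principal lengths. Birc5 over Incenp, subunits of 1 complex, was -1.17 ± 0.07 with merged lengths and 0.68 with principal lengths, so which of them was higher depended on the length. Birc5 over Cdca8 was 0.24 ± 0.06, 0.41 with principal lengths and -0.37 in CPM.

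Among kinetochore and exit genes, Ndc80 over Nuf2 was 1.33 ± 0.13 with merged lengths. It was -0.19 in CPM, and with principal lengths it was -0.06 ± 0.13, with no shared direction over the 4 libraries. Spc24 over Spc25 was 0.76 ± 0.15, and 0.26 with principal lengths. Cenpe over Cenpf was 1.06 ± 0.02, and 0.71 with principal lengths. Ube2c over Cdc20 was -1.16 ± 0.10, and turned to 0.21 with principal lengths. Pttg1 over Espl1, the inhibitor over the protease, was -1.46 ± 0.13 and came to -0.37 with principal lengths. Kif23 over Racgap1 was -1.63 ± 0.08, and Ect2 over Racgap1 was -0.82 ± 0.21. Top2a over Mki67 was 0.26 ± 0.06. With principal lengths Ect2 over Racgap1 was -1.64 and Top2a over Mki67 1.04. The mean difference changed sign with principal lengths in 5 of the 24 pairs, of which 1, Ndc80 over Nuf2, had no shared direction over libraries, and 9 pairs were within 1.5-fold.

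**Figure D3:**
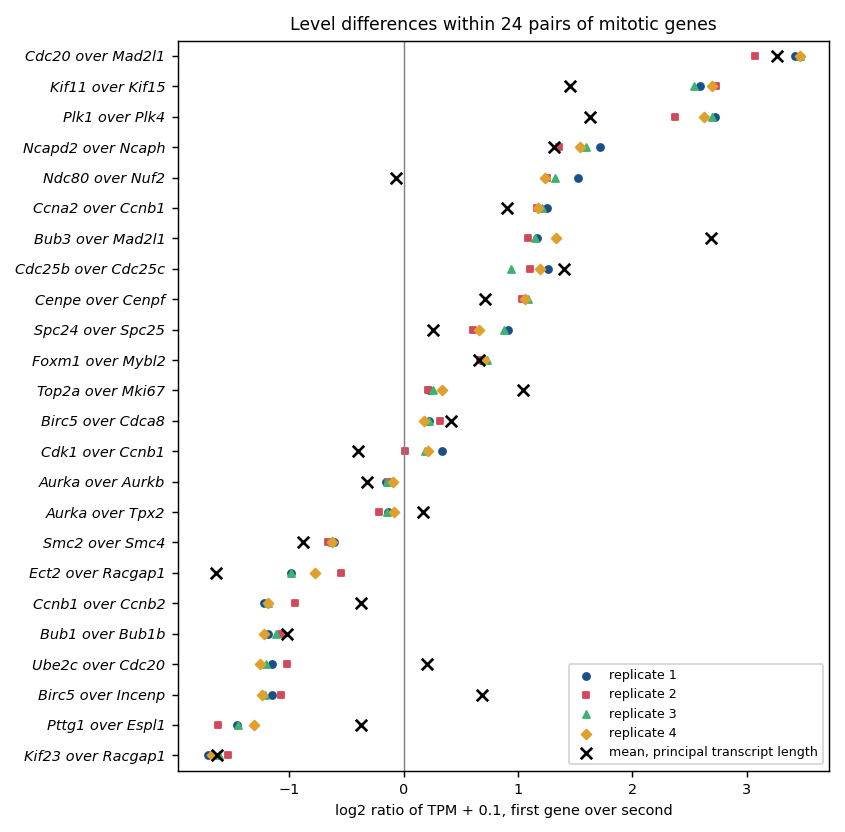
Difference of log2(TPM + 0.1) between the first and the second gene of 24 pairs in replicates 1 to 4, with the mean on principal transcript lengths as a cross. All 4 libraries lie on the same side of 0 in each pair, while the crosses of 5 pairs, Ndc80 over Nuf2 among them, lie on the other side.

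The mitotic genes did not stand out by their spread between libraries. By edgeR's quasi-likelihood dispersion against its trended prior, 0 of 53 genes varied more than genes of their abundance at a Benjamini-Hochberg adjusted p under 0.05, against 1 of 13625 genes tested (0.00734%). At an unadjusted p under 0.05 it was 1 of the 53, Cdc20, against 4.72% of genes tested. DESeq2's dispersion outliers and limma's trend also gave 0 of the 53. Each of these fits takes its trend from these same libraries, so a shift that many genes share may not be called. For Cdc20 the dispersion was 5.04 times the prior, with an unadjusted p of 0.0399 and an adjusted p of 0.957 in edgeR. Without replicate 2 the ratio was 1.68 and the edgeR unadjusted p 0.239. The median coefficient of variation of TPM was 5.19% over the 53 genes, 6.73% over the 6815 tested genes in their range of TPM and 9.65% over all genes tested.

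Of single genes, the range over libraries of log2 CPM was widest for Cdc20 (0.46), Pttg1 (0.43), Knl1 (0.37), Ect2 (0.33) and Nuf2 (0.33). Cdc20 deviated from its own mean by 0.10, -0.29, 0.17 and 0.02 in replicates 1 to 4, and Pttg1 by 0.12, -0.31, 0.06 and 0.12. Replicate 2 was thus the low library for these genes of anaphase. Knl1 deviated by -0.08, 0.26, -0.10 and -0.08 and Ect2 by -0.11, 0.20, -0.14 and 0.05, with replicate 2 the high library. Nuf2 deviated by -0.19, 0.14, 0.09 and -0.04, with replicate 1 the low one. After a correction for GC content and gene length, described below, the deviations in replicate 2 were -0.17 for Cdc20 and -0.33 for Pttg1, but 0.03 for Knl1 and 0.03 for Ect2. The narrowest ranges were those of Tpx2 (0.02), Bub1b (0.06), Kif2c (0.08), Ccna2 (0.09) and Spc25 (0.09). The median range was 0.18 over the 53 genes and 0.30 over all genes tested. The latter reach down to a mean of 0.020 TPM, against 19.3 TPM for the lowest of the 53, so the 2 sets are not matched for level.

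As a group, the 53 genes were slightly higher in replicate 3 and, before any correction, lower in replicate 4. After the correction for GC content and gene length, replicate 2 was the lowest library instead (median -0.05, against -0.02 in replicate 4). Before it, the median deviation of log2 CPM from each gene's mean was 0.01, -0.01, 0.04 and -0.03 in replicates 1 to 4. This was a range of 0.06 on the log2 scale. In replicate 3, 40 of the 53 lay above their own mean, against 51.7% of genes tested. In replicate 4, 16 of the 53 lay above their mean, against 49.6%. In replicate 1 it was 32 of the 53, against 51.1%, and in replicate 2 it was 23, against 49.8%. Replicate 4 also had the fewest counts, and the summed myeloid markers were 2.77, 4.56, 2.39 and 4.96 TPM in replicates 1 to 4, highest in replicate 4 and lowest in replicate 3. Of these 7 markers, 1 (Adgre1) reached 1 TPM in every library, and Lyz2 and S100a8 were at 0. Their part in the result was not tested.

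Before any correction, the roles did not move alike. All 4 chromosomal passenger genes lay above their own mean in replicates 1 and 3 and none in replicate 2, and the same held for the 4 anaphase promotion genes. Of the 8 centromere and kinetochore genes, 5, 7, 7 and 0 lay above their mean in replicates 1 to 4. Of the 6 condensation genes it was 1, 5, 3 and 0, and of the 6 cyclin, Cdk1 and Cdc25 genes 3, 1, 5 and 3. After the correction for GC content and gene length the counts in replicate 2 were 2 of 8 for the centromere and kinetochore genes, 2 of 6 for the condensation genes, 2 of 4 for the passenger genes and 0 of 4 for the anaphase promotion genes. They were 0 of 5 for the checkpoint, 0 of 9 for spindle motors and spindle proteins, and 2 of 2 for the transcription factors. The roles then moved more alike. Their corrected medians were below 0 in replicate 2 in every role but the transcription factors, and above 0 in replicate 3 in every role. These counts are descriptions, and no difference between roles was tested.

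**Figure D4:**
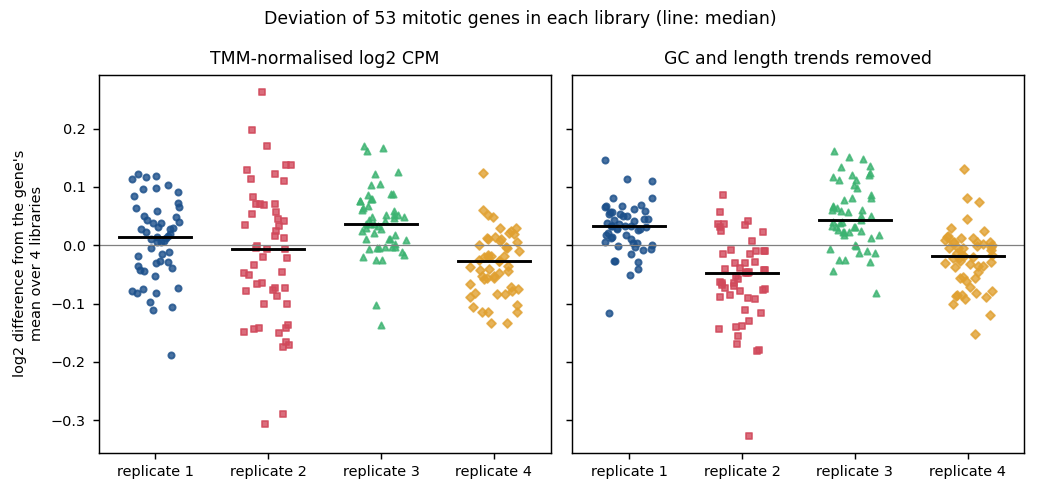
Deviation of each of the 53 genes from its own mean (log2 CPM) in replicates 1 to 4, with the median as a line, before (left) and after (right) a correction for GC content and gene length in each library. Replicate 2 has the widest scatter on the left, and on the right its median is -0.05, with 10 of 53 genes above 0. The corrected median of replicate 2 over all genes tested is 0.0014.

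Replicate 2 held the highest value of 15 of the 53 genes and the lowest of 23, and it was the highest or lowest library for 69.5% of all genes tested. The deviations moved with the GC content of a gene's transcripts, which had a median of 47.3% over the 53 genes and 50.1% over genes tested. Across the 53 genes, Pearson's r between GC content and deviation was 0.78, -0.77, 0.36 and 0.30 in replicates 1 to 4, and Spearman's rho was 0.81, -0.81, 0.29 and 0.37. Across 13603 genes tested, r was 0.21, -0.34, 0.12 and 0.09. These are descriptions across genes of the same libraries, which are not independent replicates. Of the 17 mitotic genes at or above the median GC content, 17 lay above their mean in replicate 1 and 1 in replicate 2. Of all 6802 genes tested at or above it, 4585 and 2013 did. Of the 36 mitotic genes below it, 15 lay above their mean in replicate 1 and 22 in replicate 2. Of all 6801 genes tested below it, 2375 and 4759 did. Knl1 had a GC content of 38.3% and Ect2 of 41.3%, against 54.8% for Cdc20 and 47.3% for Pttg1.

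**Figure D5:**
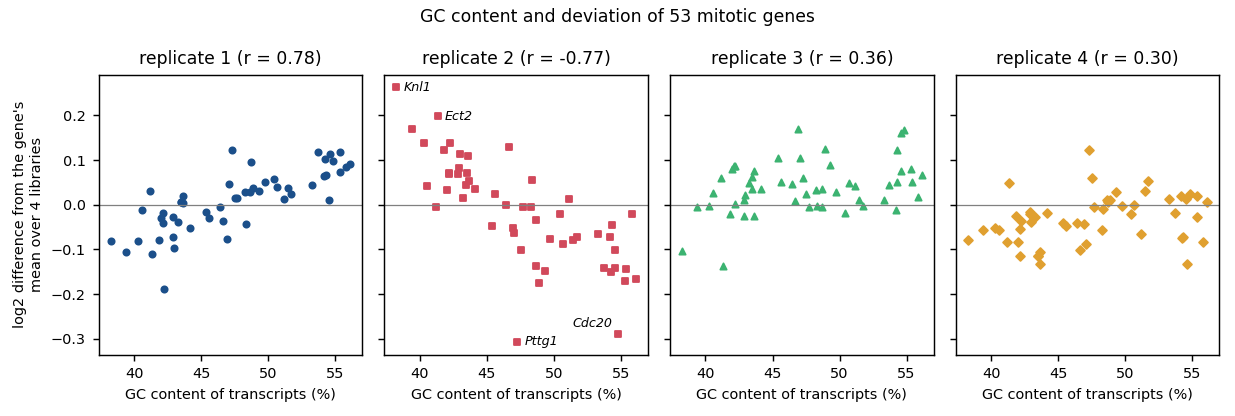
Deviation of each of the 53 genes from its own mean (log2 CPM) against the GC content of its transcripts (%), 1 panel per library. The points rise with GC content in replicate 1 (r = 0.78) and fall with it in replicate 2 (r = -0.77), with Knl1 and Ect2 at the upper left and Cdc20 at the lower right.

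After the deviations were corrected for their trend with GC content and gene length, the medians over the 53 genes were 0.03, -0.05, 0.04 and -0.02 in replicates 1 to 4. Genes above 0 then numbered 42, 10, 43 and 17. Shares of all genes for these corrected counts are not given here. Over all genes tested the corrected medians were 0.0008, 0.0014, 0.0009 and 0.0030. The group's median was thus lowest in replicate 2 after the correction, and in replicate 4 before it. The range between libraries of the group's median was 0.091. For single genes the corrected range was widest for Pttg1, at 0.47. Mean differences within the 24 pairs reached 3.35 on the log2 scale.

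The same pathways hold 130 other genes, of which 128 reached 1 TPM in every library, and their median was 44.2 TPM. None of the 128 tested varied more than the prior at an adjusted p under 0.05 in edgeR. Cenpm, Esco1 and Ccnf, 3 of the 128, had an unadjusted edgeR p under 0.05. This is no excess over the 4.72% of all genes tested. DESeq2's dispersion outliers and limma also gave 0 of the 128. Ccna1 and Ccnb3, cyclins best known from the germ line, had no count in any library. Of the other cyclin partners and kinases, Cks1b and Cks2, small subunits that bind Cdk1, had 247 ± 16.4 TPM and 235 ± 22.7 TPM. Ccnf had 145, 113, 146 and 128 TPM in replicates 1 to 4, with replicate 2 the lowest.

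All 17 genes of the APC/C list reached 1 TPM in every library, with a median of 53.3 TPM. Its highest were Anapc5 at 254 ± 10.8 TPM and Anapc2 at 168 ± 4.70 TPM, with Ube2s (158 TPM) above Anapc2 (135 TPM) on principal lengths, and its lowest was Anapc10 at 7.83 ± 0.240 TPM. The 31 constitutive centromere and outer kinetochore genes had a median of 39.5 TPM, with Hjurp, the chaperone that loads Cenpa, at 173 ± 8.99 TPM and Cenpx at 107 ± 13.8 TPM. Cenpu was their lowest at 7.96 ± 0.463 TPM. Cenpm had 62.7, 38.5, 58.9 and 54.3 TPM in replicates 1 to 4, with replicate 2 the lowest. Both medians stand beside 47.0 TPM for the 8 centromere and kinetochore genes described above.

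The 15 genes of cohesin and its regulators had a median of 56.4 TPM, from Rad21, the kleisin that separase cuts, at 377 ± 33.8 TPM and Smc1a at 164 ± 3.70 TPM to Sgo2a at 23.7 ± 2.24 TPM. Esco1, a cohesin acetyltransferase, had 30.9, 47.6, 32.3 and 37.7 TPM in replicates 1 to 4, with replicate 2 the highest. Of the 4 other condensin subunits, Ncaph2 was the highest at 237 ± 14.7 TPM, followed by Ncapg2 at 96.6 ± 11.2 TPM, and Ncapg was the lowest at 57.2 ± 4.55 TPM. On principal lengths Ncapd3 (59.1 TPM) stood below Ncapg (76.5 TPM). Their median deviation in replicate 2 was 0.14 for the cohesin list and 0.08 for the other condensin subunits, and 0.11 for the 6 condensation genes described above. The median there was -0.22 for the anaphase promotion genes. After the correction for GC content and gene length, these medians in replicate 2 were -0.01, -0.05 and -0.04, and -0.11 for the anaphase promotion genes, so the high values of the chromosome structure lists were not kept.

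Spindle assembly and centriole genes were present throughout. The 15 genes of augmin and the gamma-tubulin ring had a median of 41.9 TPM, from Tubg1 at 163 ± 9.51 TPM and Haus4 at 112 ± 10.7 TPM to Haus5 at 10.4 ± 1.55 TPM. The 10 centriole and centrosome genes had a median of 30.7 TPM, with Cep55, which acts in the final cut between daughter cells, at 107 ± 8.65 TPM, Cep192 at 82.95 ± 9.01 TPM and Cep63 at 7.05 ± 0.398 TPM. On principal lengths Nek2 (63.2 TPM) stood above Cep192 (58.1 TPM). Of the 14 other kinesins and spindle proteins, Gtse1 had 199 ± 15.8 TPM and Numa1, which anchors spindle poles, 151 ± 11.2 TPM, and Kif3a, a motor of cilia and transport, was the lowest at 8.17 ± 0.343 TPM. On principal lengths Tacc3 (118 TPM) stood above Numa1 (116 TPM). The 8 genes of the MuvB core list, which includes E2f4, Rbl1 and Rbl2, had a median of 39.7 TPM. E2f4 had 309.7 ± 19.5 TPM and Rbbp4 166 ± 13.7 TPM, while Lin52 had 11.3 ± 1.08 TPM.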

How the data were processed

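The authors deposited raw counts of read pairs for each gene. Per the file headers, pairs were counted by featureCounts 1.4.6-p4 over exons (reverse-stranded, setting 2) with the GENCODE M13 annotation of mm10, and the aligner's version was not given in the sources used here. Total RNA-seq is the assay named in the labels, although the library protocol they link is for poly(A)+ RNA. Of 50600 identifiers, 50376 matched a symbol. Levels are TPM from counts and the deposited merged exon lengths, and precision within a library covers counting error only. No source names molecular identifiers, so PCR copies may be among the counts.

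Spread was tested over all genes with edgeR 4.0.16 in R 4.3.3 (TMM, filterByExpr, intercept only, robust prior) and checked on simulated data. There it called 95% of 2-fold and 100% of 4-fold shifts in 1 library, along with 8 unshifted genes, and smaller shifts were not simulated. Shifts were placed only in genes with high counts. The spread of simulated dispersions around the trend was set, not taken from the libraries, so these shares may not hold for the real data. Gene types, transcript GC content and principal transcript lengths came from GENCODE M21. Principal lengths and the split by GC content were added after seeing the data. Alternatives used DESeq2 1.42.0 and limma 3.58.1, and tables used Python 3.11.15. No pair of libraries agreed within sampling noise.

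All genes of the pairs, the highest and lowest of each role and the 5 widest and narrowest ranges were named by rule, and the remaining members are given as means. Of the other lists, the 2 highest genes and the lowest were named. Foxp3, Cd8a, the marker genes at 0 and the 3 other mitotic genes with a low unadjusted p were named after their values were seen. The members and all lists were chosen with earlier results of these data known.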

Additional observations from a re-analysis of the deposited data

Results flagged for a closer look

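In 3 of the 53 genes (5.66%) 1 library stood apart from the other 3, by Dixon's limit for the gap to the nearest library as a share of the whole range. Chance flags about 1 in 20 groups, and 5.28% of all genes tested passed the same limit. Knl1 had 31.8, 41.8, 30.8 and 32.1 TPM in replicates 1 to 4, with replicate 2 higher by a gap of 0.882 of the range. Hmmr had 83.1, 91.5, 82.98 and 81.8 TPM, with replicate 2 higher by a gap of 0.868. Mad2l1 had 44.3, 44.8, 44.5 and 41.3 TPM, with replicate 4 lower by a gap of 0.8705. Of the 24 pairs, 2 were flagged in the same way, both through replicate 2. Ccnb1 over Ccnb2 was -1.22, -0.95, -1.19 and -1.18 on the log2 scale, with a gap of 0.863, and Cdc20 over Mad2l1 was 3.42, 3.07, 3.46 and 3.46, with a gap of 0.897. GC content, with which replicate 2 moved, was 38.3% for Knl1, 42.2% for Hmmr and 41.2% for Mad2l1, and values corrected for GC content and gene length differed. The log2 range of Knl1 was then 0.08, against 0.37 uncorrected. Hmmr deviated in replicate 2 by -0.08, against 0.07 uncorrected. For Mad2l1 the lowest library was then replicate 2, at -0.18, in place of replicate 4.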

How the results depend on the processing

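No member was called as varying under any alternative fit, and the adjusted p of Cdc20 ranged from 0.489 (no filter on low counts) to 0.996 (without replicate 2). Genes called over the whole table numbered 1 in the fit reported above, 69 with no filter, 13 without replicate 2, 2 without replicate 1 and 43 as DESeq2 dispersion outliers. All 53 genes kept 1 TPM in every library and a mean of 10 TPM. The count at 100 TPM, 20, was 35 at 100 CPM without length normalization, 40 at a threshold of 50 TPM and 20 to 22 when 1 replicate was left out. The median log2 level, 6.47, was 6.94 in CPM, 6.57 with principal lengths and 6.45 to 6.48 with 1 replicate left out. The range of library medians, 0.063, was 0.091 with GC content and length trends removed, 0.154 over the 17 genes at or above the median GC content, and 0.043 to 0.086 with 1 replicate left out. Of 168 alternatives for the pairs 160 kept their direction. In CPM, Ccnb1 minus Ccnb2 turned to 0.33, Birc5 minus Cdca8 to -0.37 and Ndc80 minus Nuf2 to -0.19. With principal lengths, Cdk1 minus Ccnb1 turned to -0.40, Aurka minus Tpx2 to 0.17, Birc5 minus Incenp to 0.68, Ndc80 minus Nuf2 to -0.063 (with no shared direction over libraries) and Ube2c minus Cdc20 to 0.21. Only the length differs in these settings. No paired analysis was possible because there is 1 group. Limits are the 4 libraries, from which no exact p under 2 in 16 can come, the annotated lengths behind every comparison between genes, and the trend of each library with GC content. At 901 counts or more per gene and library, depth was not the limit.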
